A study of Mus musculus with 2 samples.

Results

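The 10 genes described here make or regenerate the thiol antioxidants of the cell, or control those that do: Nfe2l2, Gclc, Gclm, Gsr, Txnrd1, Hmox1, Srxn1, Gpx1, Gpx4 and Prdx1. They were listed by symbol, and all 10 were found among the 27998 genes counted in both libraries. The libraries are single-cell RNA-seq of sorted Lin- Sca-1+ c-Kit+ (LSK) bone marrow cells, a mix of blood stem cells and early progenitors, from 3-month-old mice kept on a C57BL/6 background. By the labels, 1 library is Trmt6 WT with the genotype Trmt6fl/fl, and 1 is Trmt6 cKO with the genotype Trmt6fl/fl, MX1-cre, so that by the labels both carry floxed alleles. TRMT6 and its catalytic partner TRMT61A together methylate tRNA to give m1A. Mx1-Cre is a recombinase under an interferon-inducible promoter that is active in many tissues besides blood cells, and it was induced by injections of pIpC, a mimic of viral RNA. The study instead describes its controls as Trmt6+/+ with the recombinase and the injections, which is at odds with the WT label on both the floxed alleles and the recombinase. Neither source says how many animals went into a library. Genotype, library and possibly the recombinase and the floxed alleles therefore coincide, and these cannot be told apart. With 1 library per genotype no test across samples was possible: all intervals are 95% intervals of counting error only, and no p-value is given.

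NRF2, encoded by Nfe2l2, is a transcription factor that KEAP1 holds in the cytoplasm and marks for degradation until oxidants or electrophiles modify KEAP1. It then pairs with a small MAF protein at the antioxidant response element and turns on genes for glutathione, thioredoxin and haem turnover. Glutathione is a small peptide whose first step of synthesis is catalysed by glutamate-cysteine ligase, and glutathione reductase returns its oxidised form to the reduced one with NADPH. In blood-forming tissue, stem cells are known to be sensitive to reactive oxygen species, while granulocytes make them in large amounts.

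Of the members, 3 encode selenoproteins, in which a TGA codon within the reading frame is read as selenocysteine at the active site. The bases around this codon show where the peroxidases Gpx1 and Gpx4 and the reductase Txnrd1 carry it. Capitals mark the selenocysteine codon in the coding sequence of the principal GENCODE M21 transcript, read 5′ to 3′ on the plus strand of GRCm38.
Gpx1, codon 47 of 201, chr9:108339451-108339453: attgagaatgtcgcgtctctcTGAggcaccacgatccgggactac
Gpx4, codon 73 of 197, chr10:80054737-80054739: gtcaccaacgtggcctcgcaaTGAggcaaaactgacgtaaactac
Txnrd1, codon 498 of 499, chr10:82896037-82896039: gacatcctccagtctggctgcTGAggttaa
In the glutathione peroxidases the codon lay in the first part of the reading frame. In Txnrd1 it was the codon before the last one, and the stretch shown ends with the ordinary stop codon TAA.

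RefSeq promoters of GRCm38.p6, from 250 bases before to 50 bases after a gene start, were listed for 7 of the members: Gclm, Gpx1, Gpx4, Nfe2l2, Prdx1, Srxn1 and Txnrd1. The core of the antioxidant response element, searched as TGACNNNGC on both strands, was present for 5 of the 7 genes and in 5 of their 12 promoters. Among all entries, 14% of 27025 genes and 12.4% of 32851 promoters held it. Each match is shown with the 10 bases on either side, 5′ to 3′ on the strand of the gene, with the match in capitals. Where the match lies on the other strand, the capitals read as its reverse complement.
Gclm, plus strand, chr3:122245413-122245441: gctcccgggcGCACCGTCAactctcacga
Nfe2l2, minus strand, chr2:75704885-75704913: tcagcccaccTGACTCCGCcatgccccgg
Prdx1, plus strand, chr4:116685456-116685484: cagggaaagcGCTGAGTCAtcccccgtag
Srxn1, plus strand, chr2:152105542-152105570: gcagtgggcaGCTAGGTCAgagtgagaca
Txnrd1, plus strand, chr10:82859104-82859132: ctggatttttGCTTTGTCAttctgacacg
The first base of the match lay 134 bases before the start in Gclm, 240 in Nfe2l2, 133 in Prdx1 and 92 at 1 of the Txnrd1 starts. In Srxn1 it lay 28 bases after the start. The AP-1 type site TGANTCA, which can overlap the element and was held by 7.81% of promoters, was found in Prdx1 and Srxn1, and 1 of the Prdx1 sites overlapped the match shown. These letters were not in the windows of Gpx1 and Gpx4. A match is a description of the sequence, and no binding was measured here.

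A total of 47991455 UMIs (unique molecular identifiers, each 1 counted transcript molecule) came from 8869 WT barcodes and 98323201 from 9260 cKO barcodes. Filters and doublet removal left 8149 WT and 8480 cKO cells with medians of 4148 and 10023.5 UMIs, a ratio of 2.42. Only 24 barcodes were shared by the libraries. Levels are therefore given as counts scaled to 1000000 UMIs (CPM), and each ratio as log2 of cKO over WT. The libraries were counted from the 3′ end of transcripts, so that a level does not scale with transcript length. The targeted gene, Trmt6, was counted at 63.5 (WT) and 50.5 CPM (cKO), with a log2 ratio of -0.33, but UMIs at the 3′ end do not show whether a transcript held the floxed exon. Of the genes behind the sort, Kit (c-Kit) stood at 63.3 (WT) and 21.4 CPM (cKO), and Ly6a (Sca-1) at 34.8 and 141 CPM, so both defining markers were present in each library.

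Over all kept cells, Gpx1 and Gsr were the members with the lowest ratios, and Srxn1 and Hmox1 those with the highest. Of the 10 members, 9 reached 5 CPM in a library, Srxn1 only through its cKO level, and Hmox1 did not. None of these 9 was past 2-fold in either direction, where 2.86% of the 9150 genes tested were higher and 5.2% lower past 2-fold. All 9 differed between the libraries beyond counting error, 4 higher and 5 lower, as did 33.1% (higher) and 45.6% (lower) of all genes tested. Of all genes tested, 43.2% had a ratio above 0. The median log2 ratio of the 9 was -0.10, beside -0.07 over all genes tested. Scaling by median-of-ratios size factors moved the median of all genes to 0.04 and brought 53.3% of genes above 0, so ratios of about 0.1 in size depend on the scaling.

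**Figure D1:**
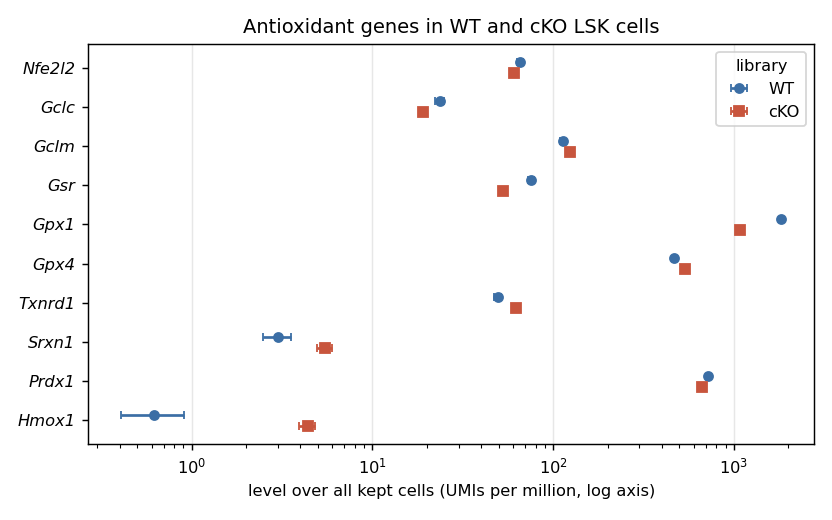
Levels of the 10 antioxidant genes over all kept cells, in CPM on a log axis, with blue circles for the WT library, red squares for the cKO library and bars for exact 95% Poisson intervals. Gpx1 stood highest in both libraries, at 1821 and 1076 CPM, and Hmox1 lowest, at 0.623 and 4.38 CPM.

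For comparison within lineages, cells thinned to 2000 UMIs were gated on marker genes, and 4 gates held at least 50 cells in each library. These were GMP (granulocyte-monocyte progenitor; proteases such as Mpo and Elane) with 1087 WT and 68 cKO cells, and HSC (stem cell; markers such as Procr and Hlf) with 1725 and 2966 cells. LMPP (lymphoid-primed progenitor; Flt3, Dntt) held 718 and 188 cells, and megakaryocyte (Pf4, Gp1bb) 304 and 75 cells. In each gate and library, the 10 genes with the highest ratio of the gate over the other cells held more markers of its own list than of any other. The cells were chosen by these same markers, so this follows from the gating and is no check of what the gated cells are. Gate sizes were not compared, because the marker levels themselves differed. The 4 GMP markers summed to 6303 CPM over all WT cells and to 727 CPM over all cKO cells, and the 6 neutrophil markers to 5419 and 7.98 CPM. Within the gates the markers also differed, from 18447 to 10563 CPM for the GMP list in GMP-gated cells and from 3070 to 790 CPM for the megakaryocyte list in megakaryocyte-gated cells. The HSC list stood at 2120 and 2580 CPM in HSC-gated cells. Markers of other lineages moved inside the gates as well. In HSC-gated cells the GMP list stood at 1722 (WT) and 499.5 CPM (cKO), the LMPP list at 168 and 40.3 CPM and the neutrophil list at 287 and 3.90 CPM. In LMPP-gated cells the GMP list stood at 1446 and 482 CPM, the neutrophil list at 218 and 4.83 CPM and the B cell list at 75.2 and 272 CPM. In GMP-gated cells the neutrophil list stood at 379 and 130 CPM. In megakaryocyte-gated cells the neutrophil list stood at 232 and 4.44 CPM, the GMP list at 640 and 245 CPM and the HSC list at 562 and 925 CPM. The part of these markers in the gate ratios of the members was not tested. Whether gated cells of the libraries are at the same stage was not tested.

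No member at 5 CPM or more was past 2-fold in any of the 4 gates. In HSC-gated cells 9 members were tested, beside 2.34% of all genes higher and 7.41% lower past 2-fold, and in GMP-gated cells 8, beside 4.42% and 4.86%. In LMPP-gated cells 8 were tested, beside 4.27% and 8.15%, and in megakaryocyte-gated cells 9, beside 5.56% and 10.7%. The median log2 ratio of the tested members was 0.11 in HSC-gated cells (all genes -0.13), 0.07 in LMPP-gated cells (-0.06), 0.34 in GMP-gated cells (0.03) and -0.06 in megakaryocyte-gated cells (-0.09). The GMP-gated median turned to -0.070 and the LMPP-gated median to -0.036 when markers were counted in unthinned cells. With each cell scaled to its own total, the LMPP-gated median turned to -0.088 and the megakaryocyte-gated median to 0.10.

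**Figure D2:**
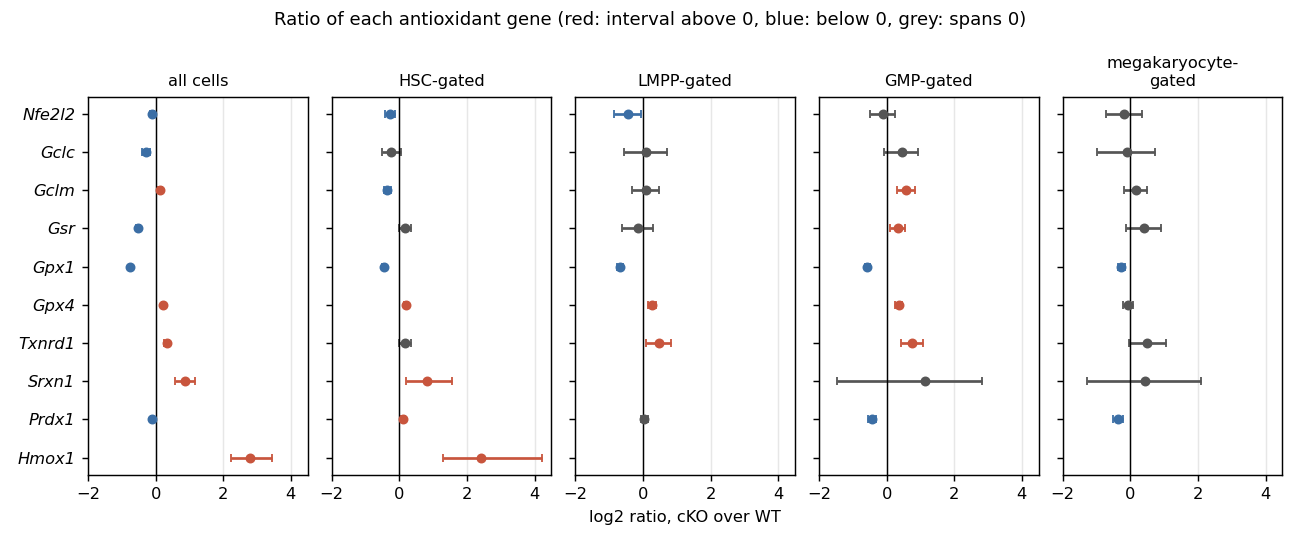
log2 ratio of cKO over WT for each gene over all kept cells and in the 4 gates, with bars for 95% counting intervals. Red points have intervals above 0, blue points below 0 and grey points spanning 0, and genes with fewer than 10 UMIs in both libraries together are left out of a panel. Gpx1 lies below 0 in all 5 panels, while Gsr lies below 0 over all cells and above 0 in GMP-gated cells.

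The control gene Nfe2l2 (ENSMUSG00000015839, protein-coding, minus strand of chr2:75675513-75704641, GRCm38) differed little over all cells. WT cells had 65.6 CPM (63.2 to 68.1) and cKO cells 61.0 CPM (59.4 to 62.7), for a log2 ratio of -0.10 (-0.17 to -0.04). The ratio turned to 0.13 in cells of 4000 to 10000 UMIs and was -0.29 in cells thinned to 2000 UMIs, and the WT level ran from 88.0 CPM in the 25% of cells with the fewest UMIs to 56.1 CPM in the 25% with the most. In HSC-gated cells it was lower in cKO, at 64.2 CPM (61.2 to 67.3) against 78.3 CPM (71.6 to 85.5), with a ratio of -0.29 (-0.43 to -0.14). In LMPP-gated cells it stood at 60.5 (WT) and 44.1 CPM (cKO), with a ratio of -0.45 (-0.87 to -0.06). In GMP-gated cells (-0.10, -0.50 to 0.26) and megakaryocyte-gated cells (-0.17, -0.71 to 0.34) the ratio spanned 0. Its levels lay between 44.1 and 78.3 CPM over the 8 combinations of gate and library, with HSC-gated WT cells at the top and LMPP-gated cKO cells at the bottom. The order of the gates was HSC, megakaryocyte, GMP and LMPP in WT, and in both libraries the intervals of neighbours in the order overlapped. When each cell was thinned to 2000 UMIs, 13.7% (12.9 to 14.5) of WT and 11.6% (10.9 to 12.3) of cKO cells held an Nfe2l2 UMI, against 26.9% and 44.6% unthinned. NRF2 is controlled largely through its protein, which these data do not measure.

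Glutamate-cysteine ligase consists of a catalytic subunit, encoded by Gclc, and a modifier subunit, encoded by Gclm. Gclc (ENSMUSG00000032350, plus strand of chr9:77754535-77794485) stood at 23.5 CPM (22.1 to 25.1) in WT and 19.2 CPM (18.3 to 20.1) in cKO over all cells, a log2 ratio of -0.30 (-0.41 to -0.18). Its intervals spanned 0 in all 4 gates, from -0.24 in HSC-gated cells (-0.50 to 0.04) to 0.46 in GMP-gated cells (-0.07 to 0.93), where it was -0.14 with markers counted in unthinned cells. With 1 more marker required, the HSC-gated ratio was -0.64. In the ungated cells Gclc was lower in cKO (-0.32, -0.49 to -0.14), as it was over all cells.

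Gclm (ENSMUSG00000028124, plus strand of chr3:122245557-122270732) varied more between the 4 gates than between libraries. Over all cells it stood at 113 CPM (110 to 116) in WT and 123 CPM (121 to 126) in cKO, a ratio of 0.13 (0.08 to 0.18). In HSC-gated cells, the highest of the 4 gates in WT, it was lower in cKO, at 131 CPM (126 to 135) against 168 CPM (158 to 178), with a ratio of -0.36 (-0.46 to -0.26). In GMP-gated cells the direction was the opposite, with 77.8 CPM (72.5 to 83.3) in WT and 116 CPM (97.2 to 138) in cKO, a ratio of 0.58 (0.30 to 0.84). Of the 4 gates, LMPP-gated cells had the least Gclm in both libraries, at 49.6 (WT) and 52.6 CPM (cKO), and its ratio of 0.09 spanned 0. Megakaryocyte-gated cells had 134 and 149 CPM (ratio 0.16, -0.18 to 0.48). In WT, no intervals of neighbouring gates overlapped. The highest gate exceeded the lowest 3.38-fold in WT and 2.83-fold in cKO. The ratio over all cells turned to -0.09 when the gates were weighted alike, and to -0.05 when each cell was scaled to its own total. Gclm also varied with the depth of WT cells, from 156 CPM in the 25% of WT cells with the fewest UMIs to 88.2 CPM in the 25% with the most, while the matching cKO classes lay between 119 and 125 CPM. The processed pseudogene Gm6061 overlaps Gclm on the same strand, so a part of its UMIs could be split.

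Glutathione reductase, encoded by Gsr (ENSMUSG00000031584, plus strand of chr8:33652523-33698163), differed in direction between the value over all cells and the values within some gates. Over all cells it stood at 75.5 CPM (72.9 to 78.2) in WT and 52.5 CPM (50.97 to 54.0) in cKO, a log2 ratio of -0.52 (-0.59 to -0.46). In GMP-gated cells, however, it was higher in cKO, at 172 CPM (149 to 198) against 138 CPM (131 to 145), a ratio of 0.32 (0.10 to 0.54). That value rests on 197 UMIs in 68 cKO cells, and it turned to -0.31 when markers were counted in unthinned cells, which placed 1105 WT and 123 cKO cells in the gate. In HSC-gated cells Gsr stood at 47.2 and 53.2 CPM (0.17, -0.01 to 0.36), in LMPP-gated cells at 39.0 and 35.0 CPM (-0.15, -0.63 to 0.31) and in megakaryocyte-gated cells at 49.8 and 65.5 CPM (0.40, -0.13 to 0.92). In the ungated cells it was slightly higher in cKO, at 50.3 against 45.4 CPM (0.15, 0.03 to 0.27). Of the 4 gates, GMP-gated cells thus held the most Gsr in both libraries, 3.53 times the lowest gate in WT and 4.91 times in cKO. The neutrophil gate, which held 55 WT cells and 0 cKO cells, stood higher still in WT, at 483 CPM (418 to 557).

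When each of the 4 gates and the ungated cells were given the same weight in both libraries, Gsr was 52.9 (WT) and 60.2 CPM (cKO), a log2 ratio of 0.19. The share of thinned cells with a Gsr UMI was 10.5% (9.83 to 11.2) in WT and 10.4% (9.71 to 11.02) in cKO. In WT the 25% of cells with the most UMIs stood at 104 CPM and the other classes of this size between 48.6 and 53.5 CPM, whereas all cKO classes lay between 50.6 and 54.1 CPM. GMP-gated WT cells had a median of 9358 UMIs against 4148 over all kept WT cells, and they held 1446 of the 3153 WT Gsr UMIs. The lower Gsr level over all cKO cells was thus not seen at equal weights of the gates.

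**Figure D3:**
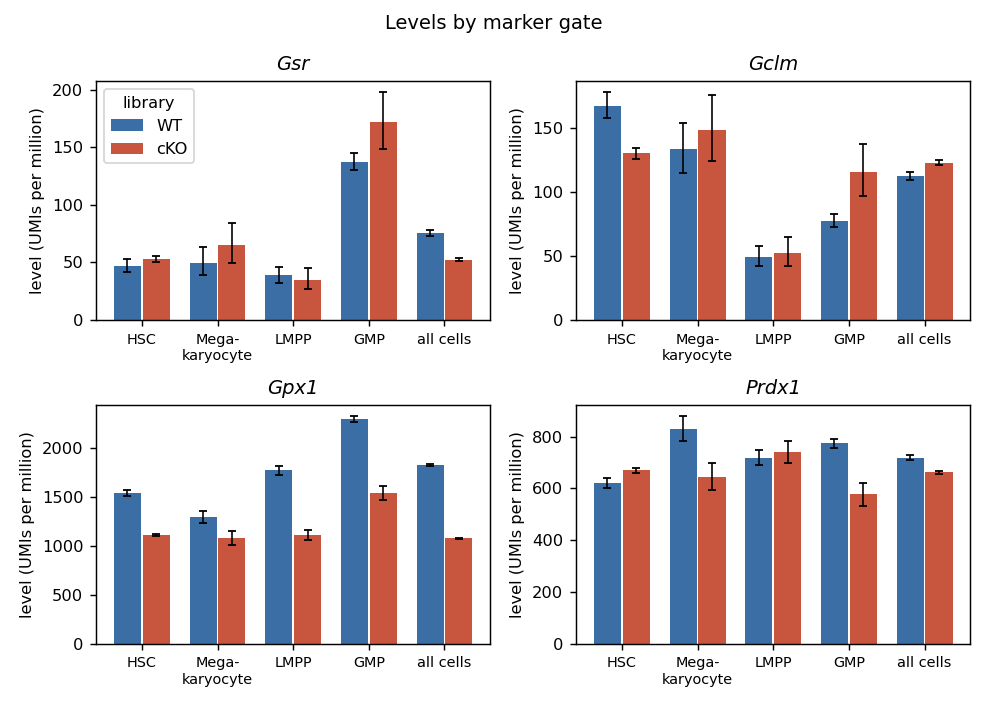
Levels of Gsr, Gclm, Gpx1 and Prdx1 in CPM in the 4 gates and over all kept cells, as bars from 0 for the WT (blue) and cKO (red) libraries with exact 95% Poisson intervals. Gsr stands highest in GMP-gated cells of both libraries while its bar over all cells is lower in cKO, and Gpx1 is lower in cKO in every gate.

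**Figure D4:**
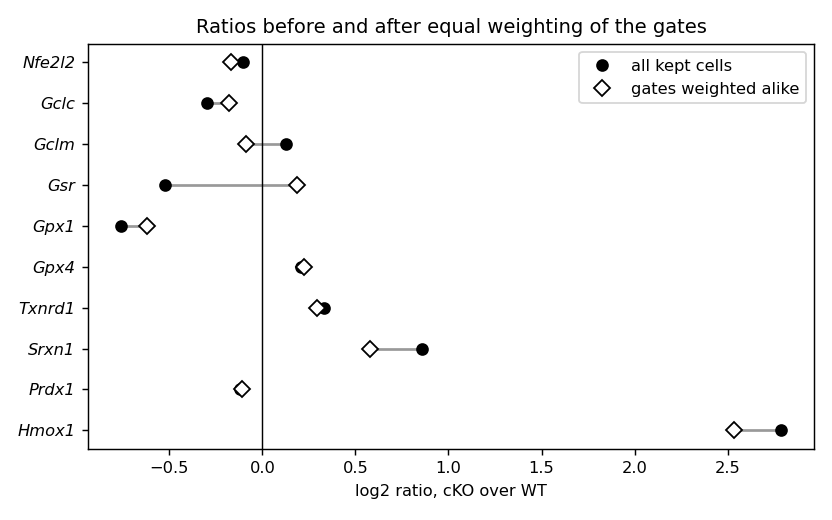
log2 ratio of cKO over WT for each gene, as a filled circle over all kept cells and as an open diamond when each gate and the ungated cells had the same weight in both libraries. Gsr moves from -0.52 to 0.19 and Gclm from 0.13 to -0.09, and the other 8 genes stay on their side of 0.

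The selenoprotein peroxidases, which use glutathione to reduce peroxides, differed in direction. Gpx1 (ENSMUSG00000063856, plus strand of chr9:108338903-108340343), the general cytosolic peroxidase, was the most abundant member and had 1821 CPM (1808 to 1834) in WT and 1076 CPM (1069 to 1083) in cKO. Its log2 ratio of -0.76 (-0.77 to -0.75) is a level 1.69-fold lower in cKO. Gpx1 was lower in every gate. In HSC-gated cells it stood at 1533 CPM (1502 to 1564) in WT and 1108 CPM (1096 to 1121) in cKO, a ratio of -0.47 (-0.50 to -0.43). In LMPP-gated cells it stood at 1768 and 1106 CPM (-0.68, -0.75 to -0.60), and in GMP-gated cells at 2292 and 1538 CPM (-0.58, -0.65 to -0.51). In megakaryocyte-gated cells the difference was smaller, at 1288 and 1075 CPM (-0.26, -0.37 to -0.15). Of the 4 gates, GMP-gated cells held the most Gpx1 in both libraries and megakaryocyte-gated cells the least, though in cKO their interval overlapped that of LMPP-gated cells. With the gates weighted alike the ratio was -0.62, and cells outside the cycling gate gave -0.67, so Gpx1 was lower in these subsets too. After thinning, 94.8% (94.3 to 95.3) of WT and 86.8% (86.1 to 87.5) of cKO cells held a Gpx1 UMI.

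Gpx4 (ENSMUSG00000075706, plus strand of chr10:80047166-80056439) reduces lipid peroxides within membranes and protects cells from ferroptosis. It was higher in cKO over all cells, at 537 CPM (532 to 542) against 466 CPM (459 to 472), which gives 0.21 on the log2 scale (0.18 to 0.23). The ratio was 0.20 in HSC-gated cells (0.15 to 0.26), 0.26 in LMPP-gated cells (0.14 to 0.39) and 0.35 in GMP-gated cells (0.23 to 0.47). In megakaryocyte-gated cells, which held the most Gpx4 of the 4 gates in both libraries at 689 and 660 CPM, the ratio of -0.06 spanned 0 (-0.21 to 0.09). In cKO their interval overlapped that of GMP-gated cells. Gpx4 was thus higher in 3 of the 4 gates and Gpx1 lower in all 4. In every comparison Gpx1 kept the higher level. The annotation names 1 pseudogene of Gpx4, Gpx4-ps2, to which UMIs could be lost.

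Thioredoxin reductase 1, encoded by Txnrd1 (ENSMUSG00000020250, plus strand of chr10:82833951-82897712), keeps thioredoxin reduced. It was higher in cKO over all cells, at 62.0 CPM (60.3 to 63.6) against 49.3 CPM (47.2 to 51.5), a log2 ratio of 0.33 (0.26 to 0.40). In GMP-gated cells its WT level was 48.8 CPM and its cKO level 82.1 CPM (0.75, 0.42 to 1.07), and in LMPP-gated cells at 45.2 and 62.2 CPM (0.46, 0.08 to 0.83). In HSC-gated cells (0.16, -0.01 to 0.33) and megakaryocyte-gated cells (0.50, -0.05 to 1.04) the interval spanned 0, with a positive ratio in both. Among the 4 gates the intervals of neighbouring Txnrd1 levels overlapped in both libraries, while the 55 neutrophil-gated WT cells stood lower, at 15.0 CPM (5.51 to 32.7). Eid3, which lies on the same strand within Txnrd1, could share its UMIs.

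Sulfiredoxin, encoded by Srxn1 (ENSMUSG00000032802, plus strand of chr2:152105516-152111376), repairs peroxiredoxins whose catalytic cysteine has been over-oxidised. It was sparse, with 125 WT and 474 cKO UMIs, or 2.99 CPM (2.49 to 3.57) and 5.45 CPM (4.97 to 5.96), a log2 ratio of 0.86 (0.58 to 1.16). In HSC-gated cells it stood at 3.49 and 6.24 CPM, from 22 and 168 UMIs (0.81, 0.19 to 1.55), and with markers counted in unthinned cells this ratio fell to 0.17. In the ungated cells the ratio was 0.41 (0.02 to 0.82). In the other 3 gates it rested on 3 to 14 UMIs per library, and every interval spanned 0. Among cells of 4000 to 10000 UMIs in both libraries its ratio was 1.11, past 2-fold, and the thinned share of cells with a UMI was 0.629% (0.467 to 0.829) in WT and 1.10% (0.886 to 1.35) in cKO.

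Peroxiredoxin 1, encoded by Prdx1 (ENSMUSG00000028691, plus strand of chr4:116685544-116700822), is an abundant peroxidase that thioredoxin regenerates. Over all cells it differed little, with 720 CPM (712 to 728) in WT and 662 CPM (657 to 668) in cKO, a log2 ratio of -0.12 (-0.14 to -0.10). Within the gates the direction was not uniform. Prdx1 was higher in cKO in HSC-gated cells, at 670 CPM (660 to 680) against 622 CPM (603 to 642), with a ratio of 0.11 (0.06 to 0.16). It was lower in GMP-gated cells, at 577 CPM (534 to 623) against 774 CPM (757 to 791), with a ratio of -0.42 (-0.54 to -0.31), and in megakaryocyte-gated cells, at 644 against 830 CPM (-0.37, -0.51 to -0.22). In LMPP-gated cells its ratio of 0.04 spanned 0. HSC-gated cells had the lowest Prdx1 of the 4 gates in WT, while GMP-gated cells had the lowest in cKO, with an interval that overlapped that of megakaryocyte-gated cells. The highest gate exceeded the lowest by only 1.33-fold in WT and 1.28-fold in cKO.

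Haem oxygenase 1, encoded by Hmox1 (ENSMUSG00000005413, plus strand of chr8:75093621-75100589), breaks haem down to biliverdin, iron and carbon monoxide, and macrophages that clear red cells express it strongly. It had the highest ratio of the members but the lowest level. Over all cells 26 WT and 381 cKO UMIs were counted, or 0.623 CPM (0.407 to 0.912) and 4.38 CPM (3.95 to 4.84), a log2 ratio of 2.79 (2.24 to 3.45). In HSC-gated cells 5 WT and 126 cKO UMIs gave 0.793 CPM (0.257 to 1.85) and 4.68 CPM (3.90 to 5.57), with a ratio of 2.43 (1.30 to 4.21). In the ungated cells 11 and 242 UMIs gave 0.655 and 4.45 CPM (2.70, 1.90 to 3.79). LMPP-gated cells held 3 UMIs in each library. GMP-gated cells held 4 WT UMIs and 0 cKO UMIs, and the latter allows up to 2.62 CPM, from 3 counts. Megakaryocyte-gated cells held 0 WT and 3 cKO UMIs. Hmox1 was therefore higher in cKO in the HSC-gated and ungated cells, where most of the cells were. In the GMP, LMPP and megakaryocyte gates too few UMIs were counted to give a direction.

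The Hmox1 UMIs were spread over many cells. They came from 361 cKO cells, the 10 cells with the most held 5.77% of them, and 1 cell had 3 or more, with 4. Of the 361 cells, 0.554% had a UMI of 2 or more macrophage markers, against 0.185% of the cKO cells and 1.63% of the WT cells without an Hmox1 UMI. These shares are of unthinned cells, with medians of 11785, 9938 and 4151 UMIs in that order, so they are not at equal depth. The list of 7 macrophage markers summed to 39.4 CPM in WT and 10.1 CPM in cKO, with none at 0. The share of cells with an Hmox1 UMI was 0.164% (0.0872 to 0.280) in WT and 0.848% (0.663 to 1.07) in cKO after thinning to 2000 UMIs, and 0.319% and 4.26% unthinned. A cell type that should lack Hmox1 was not at hand in these libraries, so no background share is given, and free RNA in droplets was not tested as a source.

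The other genes of these pathways were examined as a list of 85 genes in 9 groups by role, of which 76 reached 5 CPM in either library. Their median log2 ratio was -0.03, beside -0.07 over all genes tested. Past 2-fold, 5 were higher (all genes 2.86%) and 4 lower (5.2%). Of the 5, Chac1, Cth, Slc7a11 and Sesn2 reached 5 CPM only through the library in which they were high, so that this count is a description. The genes that were higher supply cysteine for glutathione, degrade glutathione, or belong to the sestrins. The genes that were lower were spread over 4 groups. Median-of-ratios scaling, which adds 0.10 to every log2 ratio, turned Esd, Gsto1, Fth1, Hmox2, Eefsec, Msra and Prdx5 from below to above 0, and the counts by direction below are those before this shift. It also took the genes past 2-fold to 6 higher, with Prdx4, and 2 lower, since Mafk and Gstp1 lost the call, as they did under both other scalings by library.

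In glutathione synthesis and breakdown 6 of 7 tested genes were higher in cKO, of which Chac1, Cth and Slc7a11 were tested only because of their cKO level. The other 4 had ratios from -0.19 to 1.58. Chac1, whose product degrades glutathione, stood at 0.144 (WT) and 18.9 CPM (cKO; 6 and 1647 UMIs), a log2 ratio of 6.93 (5.92 to 8.49). Cth, which encodes the enzyme that releases cysteine from cystathionine, stood at 0.192 and 9.37 CPM (8 and 815 UMIs), a ratio of 5.52 (4.63 to 6.83). Slc7a11, the cystine importer, stood at 0.431 and 6.83 CPM (3.95, 3.31 to 4.75), and its partner Slc3a2, the most abundant gene of the group, at 92.7 and 277 CPM (1.58, 1.53 to 1.63). Slc3a2 was higher in each gate, from 1.37 in GMP-gated to 1.82 in megakaryocyte-gated cells. In HSC-gated cells Chac1 had 1 WT UMI and 469 cKO UMIs, and Slc7a11 3 and 159. By contrast Gss, which encodes the enzyme of the second step of glutathione synthesis, stood at 18.4 and 16.2 CPM (-0.19, -0.31 to -0.06). Ggct and Chac2, which also act in breakdown, had ratios of 0.51 and 0.22. The genes of both synthetic steps, Gclc, Gclm and Gss, lay within 0.30 of 0 on the log2 scale over all cells, but not in every gate: in HSC-gated cells Gss stood at 24.1 and 16.1 CPM (-0.58, -0.85 to -0.30), and Gclm had the ratios of -0.36 and 0.58 given above for the HSC and GMP gates. Chac1, Cth, Slc7a11, Slc3a2 and Sesn2 are, as background, known targets of ATF4, the transcription factor of the amino acid response, and Slc7a11 is also a target of NRF2.

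Of 14 thioredoxin and peroxiredoxin genes 10 were higher in cKO (12 under median-of-ratios scaling), with a median of 0.35, where 43.2% of all genes tested were above 0 (53.3% under that scaling). Sesn2, which encodes a stress-induced regulator of mTORC1 and was tested only because of its cKO level, stood at 2.23 and 24.3 CPM (3.44, 3.15 to 3.76), and Msrb1, a selenoprotein that repairs oxidised methionine, at 97.1 and 42.3 CPM (-1.20, -1.26 to -1.14). No tested gene of this group was lower past 2-fold in any of the 4 gates or the ungated cells. Msrb1 had a ratio of -0.49 (-0.76 to -0.24) in GMP-gated cells. The most abundant gene of the group, Txn1, which encodes cytosolic thioredoxin, stood at 699 and 894 CPM (0.35, 0.34 to 0.37). Among 9 NRF2 control genes tested 4 were higher and 5 lower, with a median of -0.17. In HSC-gated cells 1 had a ratio above 0 and 8 below, 5 of these lower beyond counting error (median -0.24, all genes -0.13). In GMP-gated cells 7 had a ratio above 0 and 1 below (0.36, all genes 0.03), but only Sqstm1 (1.52, 1.20 to 1.83) differed beyond counting error. The share of all genes above 0 was not taken by gate. Mafk, a small MAF partner, stood at 16.6 and 7.76 CPM (-1.09, -1.25 to -0.94), and Nfe2, the most abundant of the group, at 99.7 and 104 CPM (0.06). All 6 tested genes of NADPH supply were lower over all cells, with a median of -0.35 (all genes -0.07, with 43.2% above 0). In GMP-gated cells all 6 had ratios below 0 (median -0.35, all genes 0.03), 4 of them beyond counting error. In HSC-gated cells 5 of 7 were lower (median -0.06, all genes -0.13), in LMPP-gated cells 3 of 6 (-0.04, all genes -0.06) and in megakaryocyte-gated cells 4 of 7 (-0.01, all genes -0.09), so that these 3 medians were not below those of all genes. Idh1, which makes NADPH in the cytosol, was lowest, at 34.0 and 9.27 CPM (-1.87, -2.001 to -1.75), and Tkt, the most abundant, stood at 310 and 255 CPM (-0.28). Idh1 was past 2-fold in GMP-gated cells too (-1.33, -1.91 to -0.85). No tested gene of this group was lower past 2-fold in HSC-gated or megakaryocyte-gated cells. All 6 tested haem and iron genes were lower over all cells, or 4 under median-of-ratios scaling, where Fth1 and Hmox2 turned, with a median of -0.21, and Ftl1, the ferritin light chain and most abundant of them, stood at 2402 and 1795 CPM (-0.42).

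Of 17 genes of glutathione use 7 were higher and 10 lower (9 and 8 under median-of-ratios scaling), with a median of -0.06, close to the share and the median over all genes tested. Gstp1, a glutathione transferase, stood at 99.2 and 47.8 CPM (-1.05, -1.12 to -0.99), and Glrx3, the most abundant, at 237 and 275 CPM (0.22). Gstp1 had a ratio of -1.47 (-1.95 to -1.06) in GMP-gated cells. No tested gene of this group was lower past 2-fold in HSC-gated or ungated cells. Among the 4 superoxide and catalase genes 2 were higher and 2 lower, and Sod2, which encodes the mitochondrial superoxide dismutase and was the most abundant in cKO, stood at 112 and 152 CPM (0.43). Sod1, which encodes the cytosolic enzyme and was the most abundant in WT, stood at 123 and 138 CPM (0.17). Of the genes that place selenocysteine, 2 of 4 tested were higher and 2 lower (3 and 1 under median-of-ratios scaling), with Sephs2 the most abundant at 111 and 95.6 CPM (-0.21). Among 9 other selenoproteins 5 were higher and 4 lower, and Selenow, the most abundant, stood at 421 and 571 CPM (0.44). Selenoprotein genes as a whole therefore had no common direction, as with Gpx1 and Gpx4. Nqo1, often used as a readout of NRF2, was below 5 CPM, at 2.54 and 4.25 CPM (0.74, 0.43 to 1.07).

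**Figure D5:**
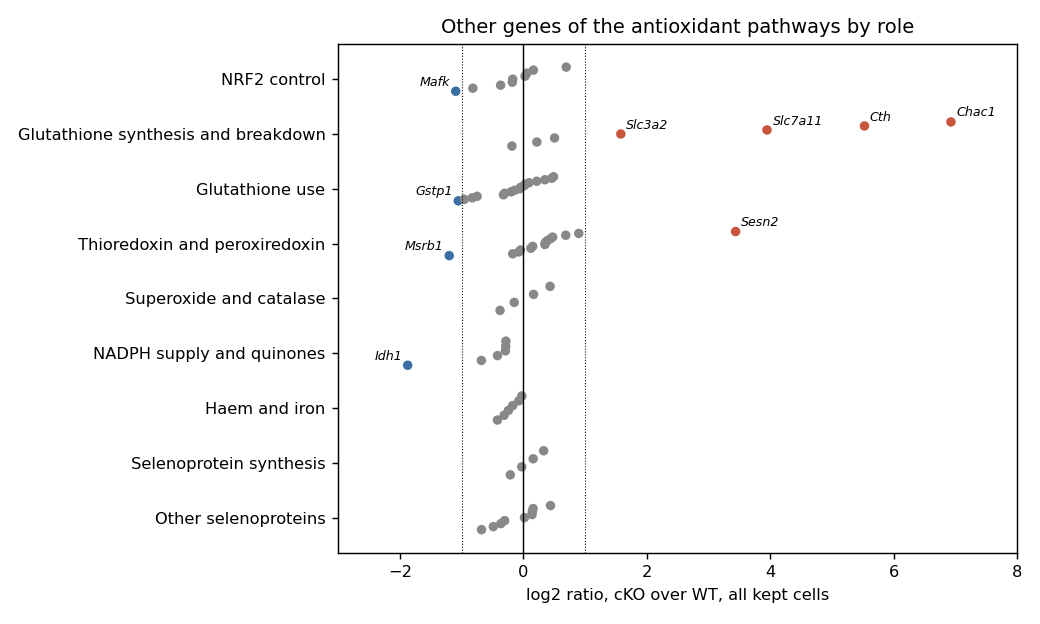
log2 ratio of cKO over WT over all kept cells for the 76 other pathway genes that reached 5 CPM, 1 point per gene, by role. Dotted lines mark 2-fold, and the genes past it are named: Chac1, Cth, Slc7a11, Slc3a2 and Sesn2 lie to the right and Idh1, Msrb1, Mafk and Gstp1 to the left, of which Mafk and Gstp1 are within 2-fold under the 3 other scalings by library.

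For the likeness of patterns, log2(CPM + 10) was correlated over the 8 combinations of gate and library among 6366 genes, which share libraries, depth and, through the gates, marker levels. The genes most like Nfe2l2 were Otos (Pearson's r 0.988), Lst1 (0.974) and Ankra2 (0.966). Those most like Srxn1, the member with the largest ratio in size at 5 CPM or more, were Ptgs1 (0.993), Ak1 (0.977) and Fbxl15 (0.971). All neighbouring gates overlapped in both members, and 6 of the 8 Srxn1 values rest on 3 to 14 UMIs, below 10 CPM, so these are descriptions that counting error can change.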

How the data were processed

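Single-cell RNA was measured in 1 library per genotype, grouped by the labelled genotype. The authors deposited UMI counts per gene and barcode, made with Cell Ranger 6.0.0 on mm10 (GRCm38) with no normalization. The labels name version 2 and the methods version 3 of the 3′ kit.

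Levels are CPM of UMIs summed over cells, with exact Poisson intervals. log2 ratios had 0.5 prior counts and exact conditional binomial intervals, and shares had Clopper-Pearson intervals (scipy 1.17.1, numpy 2.4.6, Python 3.11). The ratios were run on simulated Poisson counts, the model that the intervals assume. These hold no spread between cells, animals or libraries, so the run checks the calculation only.

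The study's limits were applied per library: over 200 genes, under 4000 (WT) or 4500 (cKO) genes, under 10% (WT) or 5% (cKO) mitochondrial UMIs and under 5% hemoglobin UMIs. These passed 8763 WT and 9151 cKO barcodes. The 614 and 671 cells with the highest share of simulated doublets among 50 neighbours were then removed, at 0.8% per 1000 barcodes (scikit-learn 1.9.0). A further 204 WT and 105 cKO cells fell below 2000 UMIs and were left out of gates and thinned shares.

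A gate required UMIs of at least 2 (HSC, LMPP, megakaryocyte) or 3 (GMP, with 2 or more UMIs each) markers, and the 485 WT and 120 cKO cells in more than 1 gate were left out. Each class's weight in the equal weighting was the mean of its shares in both libraries. Tests took genes that reached 5 CPM in either library, and past 2-fold is a log2 ratio over 1 or under -1. All members are named, and of each role group the genes past 2-fold, at most 4, and the most abundant; Trmt6 was added, as were Gss, Nqo1, Ggct, Chac2 and the genes that turn with the scaling, after their values were seen. Members and lists were chosen with earlier results of these data known. Coordinates and coding sequences are from GENCODE M21, and 10 older symbols were matched by gene ID. Only the marker Trbc1 was not found.

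Alternatives were other scalings (the TMM factor of edgeR 4.0.16, median-of-ratios size factors, UMI totals less mitochondrial and ribosomal protein genes), other cell filters, depth ranges, minimum levels, prior counts and gates, and cells outside the cycling gate. Figures used matplotlib 3.10.9.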

Additional observations from a re-analysis of the deposited data

Results flagged for a closer look

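In Gclm, counting intervals put the log2 ratio above 0 in GMP-gated cells (0.58) and below 0 in HSC-gated cells (-0.36), a difference of 0.94 (0.66 to 1.23). In Prdx1 the GMP-gated ratio (-0.42) was lower than the HSC-gated ratio (0.11) by a difference of -0.53 (-0.65 to -0.41), and the HSC-gated ratio exceeded the megakaryocyte-gated ratio (-0.37) by 0.47 (0.32 to 0.63). These gene and gate pairs stand out because the intervals of the ratios lay on opposite sides of 0. The intervals of the differences are a normal approximation of counting error, and with 1 library per genotype the differences were not tested across samples. The GMP and megakaryocyte gates held 68 and 75 cKO cells, and their marker levels differed between the libraries, whose part in these differences was not tested.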

How the results depend on the processing

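Gpx1 and Gpx4 kept their direction over all cells under every alternative run there, between -0.76 and -0.62 and between 0.16 and 0.31, as did Gclc, Txnrd1, Srxn1, Hmox1 and Prdx1. The median of the members over all cells moved from -0.10 to -0.0062 with the TMM factor, -0.0087 with totals less mitochondrial and ribosomal protein genes (called reduced totals here), -0.0016 under median-of-ratios scaling and -0.020 in cells thinned to 2000 UMIs. It turned to 0.13 in cells of 4000 to 10000 UMIs and to 0.011 with no minimum level. In each of the last 2 settings 1 member was past 2-fold in place of 0, Srxn1 in the former and Hmox1 in the latter. The pathway median of -0.03 became 0.064 with the TMM factor, 0.062 with reduced totals, 0.069 under median-of-ratios scaling and 0.13 in cells of 4000 to 10000 UMIs. Nfe2l2 turned from -0.10 to 0.13 in cells of 4000 to 10000 UMIs, Gclm from 0.13 to -0.053 with each cell scaled, -0.0012 with thinned cells and -0.086 with gates weighted alike, and Gsr from -0.52 to 0.19 with gates weighted alike. In HSC-gated cells the median of 0.11 became 0.28 with the TMM factor, 0.20 with reduced totals and 0.027 with markers counted in unthinned cells. That last setting turned the GMP-gated median from 0.34 to -0.070 and GMP-gated Gsr from 0.32 to -0.31. The megakaryocyte-gated median moved from -0.06 to 0.10 with each cell scaled, 0.0059 with the TMM factor and 0.038 with reduced totals, and the LMPP-gated median from 0.07 to -0.088 with each cell scaled and -0.036 with markers counted in unthinned cells. The TMM factor, reduced totals and median-of-ratios scaling shift all genes by 1 amount, by construction, and for the other settings the cause was not tested. Requiring 1 more marker was run only for the HSC gate, since 13 GMP, 41 LMPP and 15 megakaryocyte cKO cells would have remained. No paired analysis was possible because each genotype has 1 library. Low counts limit what can be said of Srxn1 and Hmox1 in the GMP, LMPP and megakaryocyte gates, with under 15 UMIs per library.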

Other observations

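In the cycling cells, 23.4% of WT and 19.7% of cKO cells, Gpx1 stood at 2065 (WT) and 1094 CPM (cKO; log2 ratio -0.92), against 1711 and 1072 CPM (-0.67) outside that gate. Gsr had ratios of -0.72 in cycling and -0.49 in other cells, and Gclm had 0.29 (0.20 to 0.39) and 0.06 (-0.0023 to 0.11). The difference between the cell cycle classes was not tested across samples.

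The 65 erythroid-gated WT cells, whose gate held 30 cells in cKO and was therefore not compared, had the highest Gclm of any WT gate with at least 50 cells, at 310 CPM (257 to 370). The 55 neutrophil-gated WT cells had the lowest Prdx1 of these WT gates, at 65.1 CPM (42.5 to 95.4), with Gpx4 at 245 CPM (199 to 299) and Txnrd1 at 15.0 CPM (5.51 to 32.7).

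WT Gpx1 ran from 1506 CPM in the 25% of cells with the fewest UMIs to 2099 CPM in the 25% with the most, and cKO Gpx1 from 1186 to 1029 CPM, so that the libraries were closest among their shallowest cells.

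Bach1, which encodes a repressor that competes with NRF2 at the antioxidant response element and represses Hmox1, stood at 13.4 (WT) and 7.61 CPM (cKO; log2 ratio -0.82, -0.98 to -0.65), and at 18.7 and 9.25 CPM in HSC-gated cells (-1.02, -1.34 to -0.69), while its intervals spanned 0 in GMP-gated (0.44, -0.62 to 1.27), LMPP-gated (-0.68, -1.91 to 0.33) and megakaryocyte-gated cells (-0.57, -1.71 to 0.42). Keap1 stood at 50.04 and 44.2 CPM over all cells (-0.18) and at 48.0 and 47.4 CPM in HSC-gated cells (-0.02, -0.20 to 0.17). Sqstm1, which encodes the KEAP1-binding adaptor p62, stood at 44.0 and 71.3 CPM over all cells (0.69, 0.62 to 0.77), and its ratio was 1.52 (1.20 to 1.83) in GMP-gated and 0.11 (-0.05 to 0.27) in HSC-gated cells. Prdx4, the peroxiredoxin of the endoplasmic reticulum, stood at 61.6 and 115 CPM over all cells (0.90, 0.83 to 0.96), with 1.07 (0.92 to 1.23) in HSC-gated and -0.44 (-0.95 to 0.0062) in GMP-gated cells. These 4 genes were picked from the pathway list after their values were seen. Any link between their levels and those of Hmox1 or the other members was not tested.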
